A study of Mus musculus with 36 samples.

Results

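Glycolysis turns glucose into pyruvate, and in brain it feeds both lactate production and the mitochondria. Its lower part, from aldolase on, splits fructose bisphosphate, oxidises the resulting triose phosphates and yields ATP at the phosphoglycerate kinase and pyruvate kinase steps. Several of its enzymes come as paralogs with a known cell type in mature brain: Aldoc is known as the aldolase of astrocytes and of a subset of Purkinje cells, Eno2 as the enolase of neurons, and Ldhb as the lactate dehydrogenase subunit that favours pyruvate formation. The mRNAs of these enzymes are abundant, and several of them, above all Gapdh, have left many retrotransposed copies in rodent genomes.

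The 10 enzymes described here were chosen by name: Aldoa and Aldoc, Tpi1, Gapdh, Pgk1, Pgam1, Eno1 and Eno2, Pkm and Ldhb. They are 10 of the 16614 genes in the count table, and each symbol was found there, with Aldoa on 2 rows. The second Aldoa row is a separate gene model (ENSMUSG00000114515) that held 0 to 0.736 CPM (counts scaled to a common library total) in the ribosome libraries of the standard preparation and is left out of the results. Ribosome-protected fragments (RPFs), the pieces of mRNA that a ribosome shields from nuclease, were sequenced from the pellet of a sucrose gradient, which the study uses as the fraction rich in ribosome clusters of RNA granules, and from fraction 5/6 of the same gradients, used as the polysome fraction. Both fractions may hold ribosome clusters of more than one kind. RNA-seq was made from whole brain homogenate. The mice were C57BL/6 wild type (WT) or FMR1 knockout (FMR1 KO, lacking the RNA-binding protein FMRP), all 5 days old, and each preparation pooled 10 brains. Digestion was either standard (10 mM MgCl2) or low nuclease (2.5 mM MgCl2), and there were 3 libraries for each of the 12 combinations of genotype, material and digestion, 36 in all. The comparisons below use the 18 standard libraries, and the low nuclease libraries serve the comparison of digestions and the alternatives. Since each preparation pooled brains, p-values measure the spread between preparations and not between single animals. The 3 RPF libraries of a group carried different linkers and went through reverse transcription as 1 pool, so that pool and group cannot be told apart. In material from whole brain, fewer cells of a type and less RNA per cell cannot be told apart.

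The standard RPF libraries held 6765065 to 40174168 counts, of which the single gene Cdk8 took 36.7% to 63.4%, and levels are therefore given as CPM after leaving out Cdk8. The standard RNA-seq libraries held 112249206 to 147216378 counts. Together the 10 enzymes took 0.396% to 0.471% of the counts without Cdk8 in the RNA-seq libraries, and 0.131% to 0.311% (13243 to 41243 counts) in the RPF libraries. Fmr1, the gene knocked out in FMR1 KO, was at 64.6 to 67.8 CPM in WT pellet libraries and at 4.79 to 4.93 CPM in those of FMR1 KO, and at 60.6 to 71.9 against 16.4 to 18.1 CPM in RNA-seq. The library labelled WT fraction 5/6 replicate 3 went against its label, with Fmr1 at 3.17 CPM where the other WT fraction 5/6 libraries had 68.6 and 100.1 CPM, and the tests that use it are given with and without it. On log2(CPM + 1) across genes with a mean above 1 CPM, which are not independent replicates, it was closest to FMR1 KO pellet replicate 3 (Pearson's r = 0.956, against 0.887 for the closest library of its own group), so its fraction label is in doubt as well as its genotype. Some other libraries were also closest to another group, but by smaller margins. Among them was FMR1 KO fraction 5/6 replicate 3, closest to WT pellet replicate 2 (r = 0.9354, against 0.9235 in its own group). In 3 low nuclease RNA-seq libraries (WT replicate 2, FMR1 KO replicates 2 and 3), 82.4% to 85.0% of the counts lay on 10 genes. Markers of neurons summed to 6825 to 8657 CPM in the WT pellet and 7155 to 7805 CPM in WT RNA-seq, and those of astrocytes to 453 to 596 and 461 to 711 CPM. No gene of the 6 marker lists, which also cover the oligodendrocyte lineage, microglia, endothelium and erythroid cells, was at 0 in any of these groups.

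The coding sequences of the enzymes differed in how far they can be told apart from copies elsewhere in the genome, which bears on each level below. Each coding sequence was cut into all its 28-nt windows, about the length of a footprint, and each window was looked for elsewhere in GRCm38. For Gapdh (ENSMUSG00000057666), which oxidises glyceraldehyde 3-phosphate and lies at chr6:125161715-125166467, 100% of the windows had an exact copy elsewhere, on 345 other loci, 333 of which are annotated as pseudogenes. Pgk1 (ENSMUSG00000062070, chrX:106187100-106203699), the kinase of the first ATP-forming step, and Pgam1 (ENSMUSG00000011752, chr19:41911923-41918660), the mutase that follows it, were also at 100%, with 7 and 8 other loci. These 3 enzymes stayed at 100% with windows of 100 nt. Eno1 (ENSMUSG00000063524, chr4:150236721-150248879), the widely expressed enolase, was at 90.5%, and Pkm (ENSMUSG00000032294, chr9:59656368-59679375), pyruvate kinase, at 72.5%. Ldhb (ENSMUSG00000030246, chr6:142490249-142507957), read on another transcript than the one named in the count table, was at 57.9%, Aldoa (ENSMUSG00000030695, chr7:126795234-126800751), the aldolase of most tissues, at 53.7%, and triose phosphate isomerase Tpi1 (ENSMUSG00000023456, chr6:124810586-124814296) at 36.9%. With 100-nt windows, these fell to 69.3% for Eno1, 11.7% for Ldhb, 6.56% for Pkm, 1.38% for Tpi1 and 0% for Aldoa. Aldoc (ENSMUSG00000017390, chr11:78322968-78327781) and Eno2 (ENSMUSG00000004267, chr6:124760053-124769673) had no 28-nt window elsewhere. How reads that map to several places were counted, and the length of the RNA-seq reads, are not given in the sources used here.

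Some stretches of these mRNAs carried RPF peaks that came back in all 6 pellet libraries, and 7 of them are printed here as examples of the peak positions described further on. Each is 29 nt of the mRNA around the middle of the peak, read 5′ to 3′ from GRCm38, with the codon that holds the middle in capitals.
Aldoa codon 288: acctcaatgctatcAACaagtgccccctg
Pgk1 codon 253: tcaacaacatggagATTggcacatctctg
Eno1 codon 243: accaggttgtcattGGCatggatgtggct
Eno1 codon 273: caggtacatcactCCCgaccagctggctg
Pkm codon 209: cagcaagaagggcGTGaacctgccgggcg
Pkm codon 279: tgaaggcgtccgcAGGtttgatgagatct
Pkm codon 477: ctgtgtaaggatGCCgtgctgaatgcctg
All lie in coding exons. The Aldoa window is at chr7:126795736-126795764 on the minus strand, in exon 8 of the transcript Aldoa-201. The Pgk1 window, on the plus strand, joins exons 7 and 8 (chrX:106199748-106200171), so this span includes an intron. The Eno1 windows are in exon 8, at chr4:150246615-150246643 and chr4:150246706-150246734 on the plus strand. The Pkm windows, also on the plus strand, are in exon 6 (chr9:59670513-59670541), across exons 6 and 7 (chr9:59670723-59671588) and in exon 10 (chr9:59678153-59678181) of the transcript Pkm-201.

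The levels of the enzymes followed a different order on ribosomes and in whole brain RNA. Per kilobase of coding length, Gapdh was highest in WT RNA-seq (1115 ± 62.8 CPM per kb, SD, n = 3), followed by Aldoa (800.2 ± 52.2), Pkm (418 ± 55.7), Tpi1 (400.2 ± 18.1) and Eno1 (394 ± 41.0), and the levels of the last 3 overlapped between libraries. Eno2, Aldoc and Ldhb followed between 195 and 204 CPM per kb, with overlapping libraries, then Pgam1 (163 ± 19.3), whose libraries overlapped those of Eno2, and Pgk1 (112 ± 3.81). In the WT pellet, Aldoa was highest (401 ± 39.4 CPM per kb), followed by Aldoc (267 ± 34.7), Eno2 (228 ± 5.09), Pkm (197 ± 18), Tpi1 (159.9 ± 25.6), Eno1 (139 ± 16.9) and Ldhb (113 ± 9.88). Among these 7, the libraries of Aldoa lay above all others, while those of Eno2 did not overlap Aldoc or Pkm, those of Pkm and Tpi1 overlapped, as did Tpi1 with Eno1 and Eno1 with Ldhb. Gapdh was in eighth place in the pellet (57.5 ± 7.44 CPM per kb), ahead of Pgam1 (43.0 ± 3.54) and Pgk1 (39.8 ± 6.78), whose libraries overlapped. Fraction 5/6 gave the same first 8 places in FMR1 KO.

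In the 6 low nuclease pellet libraries, Aldoa was at 593 to 681 CPM, Pkm at 399 to 488, Eno2 at 362 to 423, Aldoc at 259 to 336 and Eno1 at 224 to 253 CPM. Tpi1 was at 152 to 187, Ldhb at 132 to 157, Gapdh at 92.5 to 118, Pgk1 at 56.1 to 70.9 and Pgam1 at 33.2 to 38.8 CPM. For Aldoa, Pkm, Eno2, Eno1, Ldhb and Gapdh these ranges lay above those of the 6 standard pellet libraries, in which Aldoa was at 285 to 486 CPM and Gapdh at 41.6 to 63.7 CPM. In low nuclease RNA-seq the levels split by library: Gapdh was at 629 to 651 CPM in 3 libraries and at 28.2 to 59.2 CPM in the 3 whose counts lay on few genes, and each of the other enzymes was lower in those 3 as well.

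**Figure D1:**
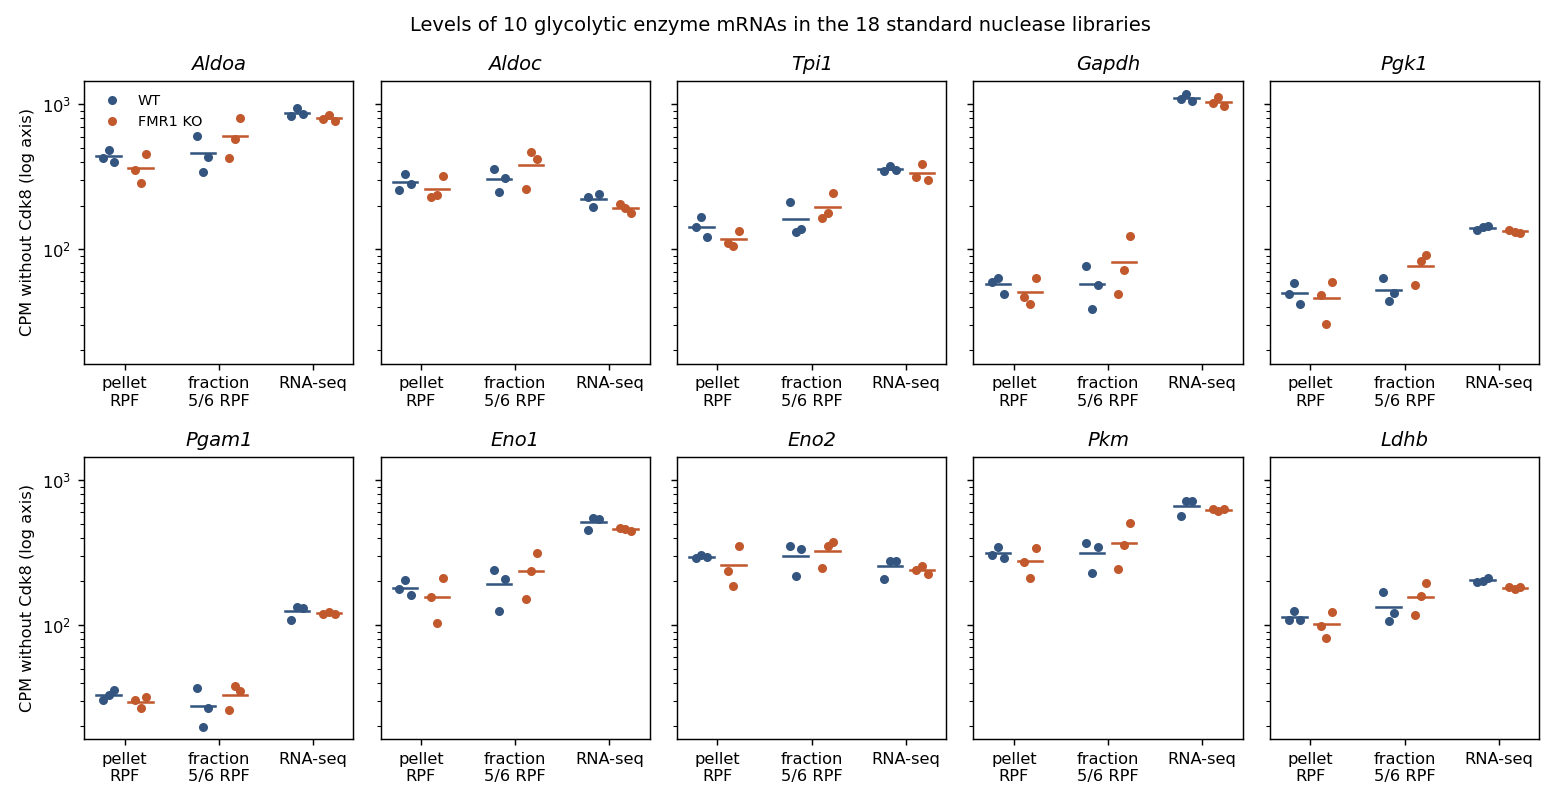
Levels of the 10 enzymes in the 18 standard nuclease libraries, in CPM without Cdk8 on a log axis; each point is a library and each line the mean of 3, WT in blue and FMR1 KO in orange. Gapdh fell from 972 to 1183 CPM in RNA-seq to 38.6 to 124 CPM in RPFs, whereas Aldoc and Eno2 were about as high in RPFs as in RNA-seq or higher.

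To ask how far each mRNA was carried by pellet ribosomes relative to its amount, pellet RPFs were compared with RNA-seq within a genotype (occupancy). In WT, Aldoc and Eno2 rose 2.91-fold and 2.61-fold and Ldhb 1.24-fold, Gapdh fell 8.74-fold, Pgam1 1.70-fold, Pgk1 and Eno1 1.28-fold each, and Aldoa, Pkm and Tpi1 did not pass the test. These folds are on a scale where the bulk of genes is centred near 0 by the TMM method. Of all 16166 genes tested, 31.1% were called higher and 34.3% lower, so that 3 of 10 and 4 of 10 enzymes are shares near the background. The median of the 10 enzymes was -0.06 on the log2 scale beside -0.11 over all genes, whose SD was 1.93. In CPM, summed markers of other cells were lower in the pellet than in RNA-seq. Those of erythroid cells (5 genes) summed to 7.30 to 19.2 CPM in the WT pellet and 237 to 551 CPM in WT RNA-seq. Those of the oligodendrocyte lineage (6 genes) summed to 112 to 153 and 522 to 810.3 CPM. Those of microglia (6 genes) summed to 109.8 to 115.8 and 178 to 192 CPM, and those of endothelium (5 genes) to 3.81 to 5.37 and 11.9 to 16.1 CPM. These sums are CPM without Cdk8, a scale on which the median of all genes was also lower in the pellet, as given below. A lower sum is therefore not by itself a fall relative to the bulk of genes. The part of these cells in the occupancies was not tested.

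Gapdh was at 1098.5, 1183 and 1060.4 CPM in the WT RNA-seq libraries and at 59.4, 63.7 and 49.2 CPM in the WT pellet. In FMR1 KO it was at 1018.8, 1123.9 and 972 CPM in RNA-seq and at 46.7, 41.6 and 63.4 CPM in the pellet. The RPF libraries lay below the RNA-seq libraries by more than any replicate spread. Its occupancy was -3.13 in WT (log2 fold change, SE 0.136, edgeR adjusted p = 5.09e-06) and -3.25 in FMR1 KO (SE 0.17, adjusted p = 1.17e-05). It stayed past the threshold in 15 of 15 alternative settings in each genotype, between -4.27 and -1.89 in WT and between -4.36 and -1.60 in FMR1 KO.

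Aldoc was at 229, 195 and 241 CPM in WT RNA-seq and at 257, 331 and 284 CPM in the WT pellet, and its pellet libraries lay above its RNA-seq libraries. In FMR1 KO it was at 206, 193 and 179 CPM in RNA-seq and at 230, 237 and 320.3 CPM in the pellet, again without overlap. Its occupancy was 1.54 in WT (SE 0.131, adjusted p = 4.13e-05) and 1.57 in FMR1 KO (SE 0.17, adjusted p = 0.000193). The other aldolase, Aldoa, was at 829, 938 and 855 CPM in WT RNA-seq and at 427, 486 and 402 CPM in the WT pellet. On the TMM scale its occupancy was 0.16 in WT (SE 0.124, adjusted p = 0.297) and -0.04 in FMR1 KO (adjusted p = 0.834), so its lower CPM in the pellet was not past the threshold relative to the bulk of genes.

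Eno2 was at 208, 277 and 277 CPM in WT RNA-seq and at 290.3, 304 and 297 CPM in the WT pellet. In FMR1 KO it was at 240.1, 253 and 225 CPM in RNA-seq and at 237, 186 and 351 CPM in the pellet, where the libraries overlapped those of RNA-seq. Its occupancy was 1.38 in WT (SE 0.15, adjusted p = 0.000138), and in FMR1 KO it rose 2.29-fold (SE 0.163 on the log2 scale, adjusted p = 0.000588). Eno1 was at 452, 545 and 543 CPM in WT RNA-seq and at 178, 204 and 160 CPM in the WT pellet. Its occupancy was -0.35 in WT (SE 0.123, adjusted p = 0.0361) and -0.47 in FMR1 KO (SE 0.148, adjusted p = 0.0262). Pkm was at 564, 721 and 714 CPM in WT RNA-seq and at 305, 346 and 290.1 CPM in the WT pellet, with an occupancy of 0.07 (SE 0.136, adjusted p = 0.69) in WT and -0.08 in FMR1 KO (adjusted p = 0.581).

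The small changes of Eno1, Pgk1 and Ldhb in WT depended on which libraries were used. When each of the 6 WT libraries was left out in turn, Gapdh, Aldoc, Eno2 and Pgam1 remained past the threshold in 6 of 6 fits, Ldhb and Pgk1 in 3 of 6 and Eno1 in 1 of 6. Ldhb lost its call without pellet replicate 1 or 2 or RNA-seq replicate 3 (adjusted p up to 0.127), Pgk1 without pellet replicate 1 or RNA-seq replicate 2 or 3 (up to 0.0743), and Eno1 without any library but RNA-seq replicate 1 (up to 0.119). In FMR1 KO, Gapdh, Aldoc, Eno2, Pgam1 and Pgk1 remained past it in 6 of 6 fits, Eno1 in 2 of 6 (those without pellet replicate 2 or 3, adjusted p otherwise up to 0.0832) and Ldhb in 0 of 6 (0.0652 to 0.222), while Tpi1 passed it without pellet replicate 2 (adjusted p = 0.0221). With the replicate number as a block, Eno1 (adjusted p = 0.0761) and Ldhb (0.0613) lost their calls in WT, and in FMR1 KO Eno1 (0.0505) and Ldhb (0.0852) lost theirs while Tpi1 passed (0.0404). With the low nuclease libraries in their place, Pgam1 (-0.43, adjusted p = 0.0971), Pgk1 (-0.17, adjusted p = 0.46), Eno1 (-0.07, adjusted p = 0.82) and Ldhb (0.07, adjusted p = 0.827) lost their calls in WT. In FMR1 KO, Pgam1 (0.21, adjusted p = 0.702), Pgk1 (0.09, adjusted p = 0.841) and Eno1 (0.58, adjusted p = 0.41) lay above 0 and Ldhb (-0.06, adjusted p = 0.843) below it, without a call. Without the 3 RNA-seq libraries whose counts lay on few genes, Pgam1 was at -0.51 (adjusted p = 0.0157) and Pgk1 at -0.02 (adjusted p = 0.927) in WT, and at -0.47 (adjusted p = 0.057) and -0.46 (adjusted p = 0.0599) in FMR1 KO. In the standard FMR1 KO libraries, too, 3 enzymes were higher and 4 lower, against a background of 31.9% and 35.2% of the genes tested. Pgam1 was at -0.76 in WT (SE 0.144, adjusted p = 0.00242) and -0.90 in FMR1 KO (SE 0.114, adjusted p = 0.000399), and Tpi1 was at -0.18 (adjusted p = 0.217) and -0.40 (adjusted p = 0.0759).

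The scaling set where 0 lies. With library size without Cdk8 in place of TMM, the median of all genes moved from -0.11 to -1.26 in WT and from -0.07 to -1.17 in FMR1 KO. On that scale 8 enzymes were lower in WT and Aldoc alone was higher (0.39, adjusted p = 0.0497), while Eno2 was at 0.23 (adjusted p = 0.216). In FMR1 KO 8 were lower and 0 higher, with Aldoc at 0.45 (adjusted p = 0.112) and Eno2 at 0.11 (adjusted p = 0.739). Gapdh was at -4.27 and -4.36. Occupancies are therefore read relative to the bulk of genes.

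**Figure D2:**
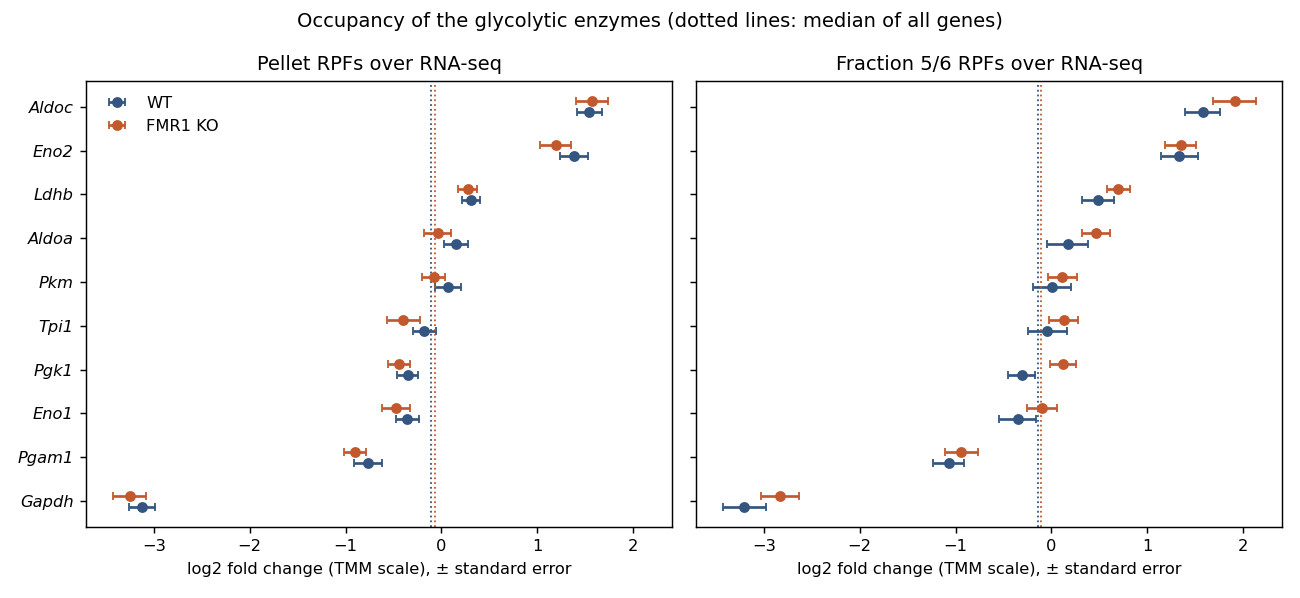
Occupancy of the 10 enzymes as log2 fold change of RPFs over RNA-seq on the TMM scale, with standard errors, for the pellet (left) and fraction 5/6 (right), WT in blue and FMR1 KO in orange, and dotted lines at the median of all genes. Aldoc and Eno2 lie above 1 and Gapdh between -3.25 and -2.83 in the 4 comparisons.

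On polysomes, Aldoc, Eno2, Ldhb, Pgam1 and Gapdh passed the threshold in both genotypes. In WT, fraction 5/6 occupancy was 1.58 for Aldoc (SE 0.18, adjusted p = 0.000487), 1.34 for Eno2 (SE 0.195, adjusted p = 0.00134), 0.49 for Ldhb (adjusted p = 0.044), -1.07 for Pgam1 (adjusted p = 0.00162) and -3.20 for Gapdh (SE 0.225, adjusted p = 0.000102). These 3 rises and 2 falls stand beside 24.7% and 31.3% of all genes, shares near that background. When the library labelled WT fraction 5/6 replicate 3 was dropped, the same 5 enzymes passed, with Aldoc at 1.72 (adjusted p = 0.000249), Eno2 at 1.41 (adjusted p = 0.00101), Ldhb at 0.69 (adjusted p = 0.00466), Pgam1 at -0.90 (adjusted p = 0.00436) and Gapdh at -3.05 (adjusted p = 0.000153). In FMR1 KO, Aldoc (1.91), Eno2 (1.35), Ldhb (0.70) and Aldoa (0.46, adjusted p = 0.0276) were higher and Gapdh (-2.83) and Pgam1 (-0.94) lower, beside 29.8% and 33.2% of all genes. Ldhb kept its call in 1 of 6 WT fits with a library left out, the one without the library labelled fraction 5/6 replicate 3 (adjusted p otherwise up to 0.112), and in 6 of 6 FMR1 KO fits. Aldoa kept it in 2 of 6 FMR1 KO fits, those without fraction 5/6 replicate 1 or RNA-seq replicate 2 (adjusted p otherwise up to 0.101). Over all 15 alternatives in FMR1 KO, Aldoa was past the threshold in 9, with values from -0.40 to 1.36. In WT, where it had no call, it passed in 3 of 15, with values from -0.92 to 0.95. With the low nuclease libraries in their place, Gapdh on polysomes in FMR1 KO was at -1.06 (adjusted p = 0.0715), and at -1.66 (adjusted p = 0.0117) without the RNA-seq libraries whose counts lay on few genes. Pgam1 lost its call in both of these settings, at -0.25 (adjusted p = 0.314) and -0.36 (adjusted p = 0.0791) in WT and at 0.29 (adjusted p = 0.592) and -0.38 (adjusted p = 0.0935) in FMR1 KO. Ldhb was at 0.65 (adjusted p = 0.061) and 0.92 (adjusted p = 0.0113) in WT and at 0.40 (adjusted p = 0.16) and 0.42 (adjusted p = 0.107) in FMR1 KO. With library size without Cdk8 in place of TMM, which lowered the median of all genes here too, Aldoc was at 0.47 (adjusted p = 0.199) and Eno2 at 0.25 (adjusted p = 0.527) in WT, and Aldoc at 1.00 (adjusted p = 0.0109) and Eno2 at 0.45 (adjusted p = 0.186) in FMR1 KO. Ldhb was at -0.61 (adjusted p = 0.0911) and -0.19 (adjusted p = 0.56) on that scale, and Aldoa in FMR1 KO at -0.40 (adjusted p = 0.289). With the replicate number as a block, Ldhb in WT (adjusted p = 0.0962) and Aldoa in FMR1 KO (adjusted p = 0.0523) lost their calls.

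Ratios of paralogs within a library need no scaling between libraries, but the paralogs differ in how much of their sequence is repeated. The share of 28-nt windows found elsewhere was 0% for Aldoc and Eno2, 53.7% for Aldoa and 90.5% for Eno1. For Ldhb and Ldha it was 57.95% and 67.3%. The part of this in the ratios was not tested. Aldoc over Aldoa was 0.527 to 0.832 in the 12 standard RPF libraries (median 0.694) and 0.208 to 0.282 in the 6 RNA-seq libraries (median 0.246), with no overlap. Eno2 over Eno1 was 1.18 to 1.85 in RPFs (median 1.62) and 0.462 to 0.548 in RNA-seq (median 0.509), again with no overlap. Ldhb over Ldha, the subunit that favours lactate formation, went the other way, with 0.360 to 0.511 in RPFs and 0.576 to 0.726 in RNA-seq. In the low nuclease preparation, Aldoc over Aldoa was 0.382 to 0.5004 in RPFs and 0.164 to 0.272 in RNA-seq, and Eno2 over Eno1 1.37 to 1.86 and 0.633 to 1.193. Ldhb over Ldha overlapped there, at 0.523 to 0.796 in RPFs and 0.589 to 1.94 in RNA-seq. Without the 3 RNA-seq libraries whose counts lay on few genes, the RNA-seq ratios ended at 0.265, 0.794 and 0.678. The library labelled WT fraction 5/6 replicate 3 lay inside the standard RPF ranges, at 0.713, 1.61 and 0.428. The ratios were chosen after the levels had been seen and are given as a description.

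**Figure D3:**
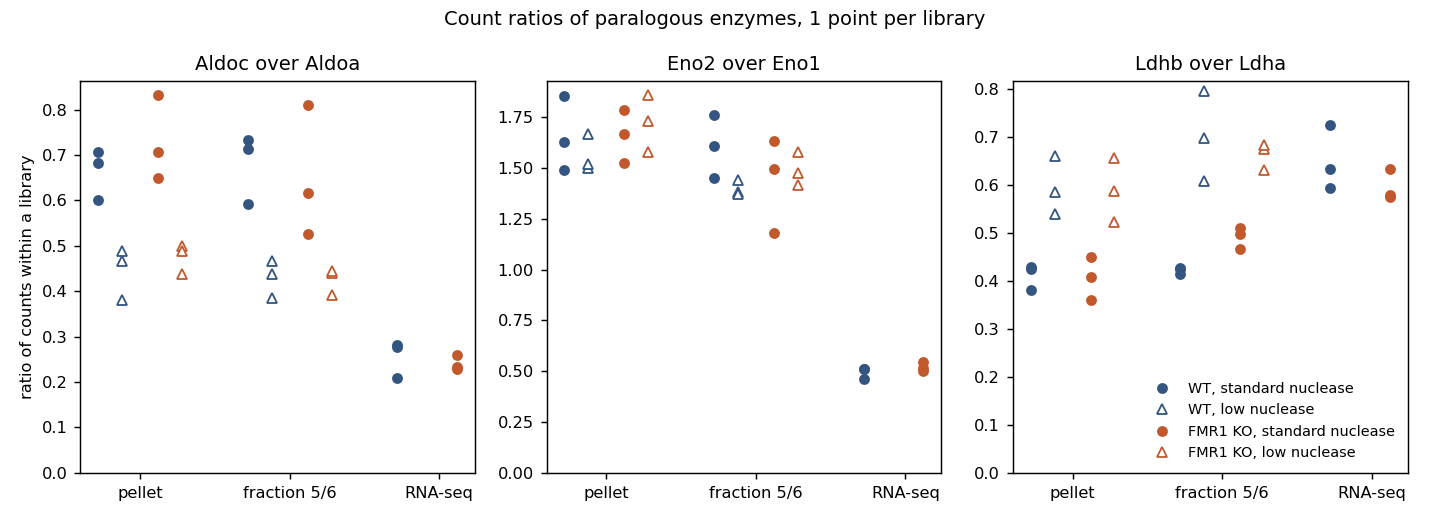
Ratio of counts of paralogous enzymes within each library, with filled circles for the standard and open triangles for the low nuclease preparation, WT in blue and FMR1 KO in orange; low nuclease RNA-seq is not drawn. The RPF libraries lie above RNA-seq for Aldoc over Aldoa and Eno2 over Eno1, and the standard RPF libraries lie below RNA-seq for Ldhb over Ldha.

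The share of repeated windows and the pellet occupancy in WT followed no steady order among the 10 enzymes. Aldoa (53.7%), Ldhb (57.95%) and Pkm (72.5%) were at 0.16, 0.31 and 0.07, above Tpi1 (36.9%), which has fewer repeated windows. The 2 enzymes with no repeated window, Aldoc and Eno2, had a median occupancy of 1.46 in WT, Tpi1 was at -0.18, and the 7 enzymes with 50% or more of their windows elsewhere had a median of -0.35 and a range of -3.13 to 0.31. Gapdh, with most loci, was lowest. Among 51 other genes of energy metabolism from the lists described below, the medians were 0.99 for 29 genes with no such window, 1.18 for 18 genes in between and 0.87 for 4 genes with 50% or more. Of these 4, Ldha (67.3%, 31 other loci) was at 0.97 and Suclg2, a subunit of succinyl-CoA synthetase (73.9%), at -1.26. The part of repeated sequence in the occupancy values was not tested. Of the 16614 rows of the count table, 16561 are protein-coding, so most pseudogene copies have no row in which counts could appear. Levels of the retrocopies with a row therefore do not show how many reads copies take. Among these, Aldoart1 was at 0.454 to 1.51 CPM in standard RPF libraries and 0.571 to 0.781 CPM in RNA-seq. Eno1b was at 0 to 0.503 and 0.360 to 0.593 CPM. Aldoart2 was higher in RPFs, at 3.12 to 7.15 CPM against 0.179 to 0.347 CPM in RNA-seq.

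**Figure D4:**
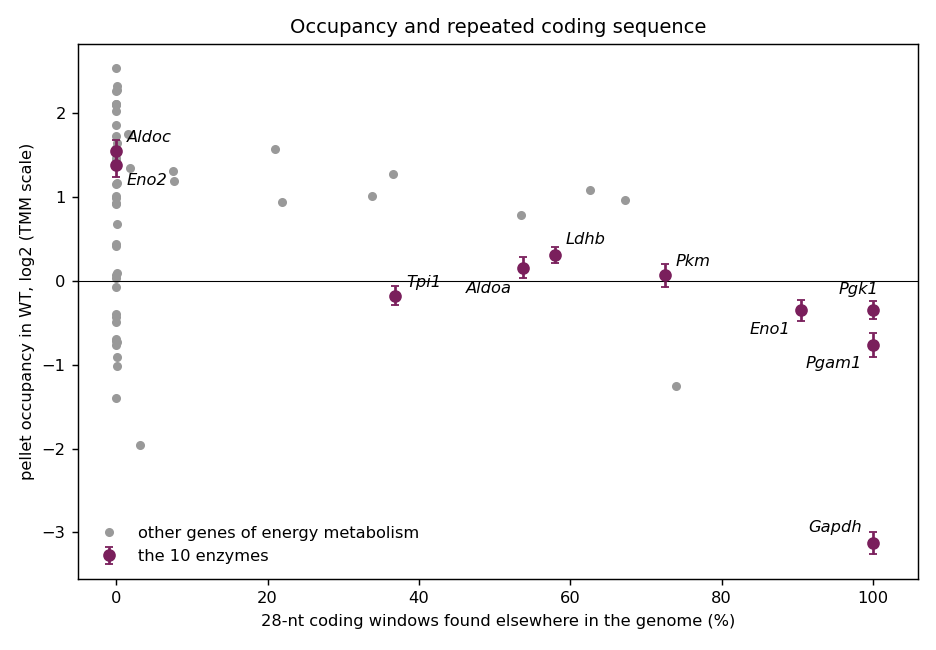
Pellet occupancy in WT (log2 fold change on the TMM scale) against the percentage of 28-nt coding windows with an exact copy elsewhere in GRCm38, for the 10 enzymes (named, with standard errors) and 51 other genes of energy metabolism (grey). Aldoc and Eno2 are at 0% and Gapdh, Pgk1 and Pgam1 at 100%, while the grey genes at 0% range from -1.40 to 2.53.

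The rest of energy metabolism gives the setting for these values. Of 18 other glycolytic enzymes, 16 were tested in pellet occupancy in WT, and 10 rose and 4 fell, with a median of 0.87. The largest rises were those of hexokinase Hk1 (2.02, adjusted p = 7.31e-05) and of the phosphofructokinases Pfkm (1.86) and Pfkp (1.73), and the largest falls those of Gapdhs (-1.96), known from sperm, and Eno3 (-1.02) and Pgam2 (-0.91), known from muscle. Of 22 genes of pyruvate dehydrogenase and the TCA cycle, 20 rose and 1 fell, with a median of 1.38, led by Dld (2.53), Mdh1 (2.32) and Fh1 (2.27). Of 7 genes of the pentose phosphate pathway 4 rose and 0 fell, with Pgd at 2.26, Tkt at 2.103 and Taldo1 at 1.01. Of 6 glucose and lactate transporters 0 passed the test, and 0 had an unadjusted p under 0.05. In FMR1 KO, 10 other glycolytic enzymes rose and 4 fell, and the counts were 20 and 1 for the TCA cycle list, 4 and 1 for the pentose phosphate pathway and 1 and 1 for the transporters. These counts stand beside 31.1% of all genes higher and 34.3% lower in WT, and 31.9% and 35.2% in FMR1 KO. The medians stand beside -0.11 over all genes tested in WT, and the 10 enzymes, at -0.06, were nearer to it than the other glycolytic enzymes. No difference between the lists was tested.

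The effect of losing FMRP was examined in RNA, in RPFs and in their ratios, and 0 of the 10 enzymes passed the threshold in any of these comparisons. In RNA-seq the FMR1 KO minus WT values ran from -0.17 for Aldoc (SE 0.11, adjusted p = 0.999) to -0.01 for Pgam1, with a median of -0.07 (0.00 over all genes), beside 0.0735% of genes called in either direction. In pellet abundance they ran from -0.23 for Aldoa (SE 0.123, adjusted p = 0.883) and Tpi1 to -0.09 for Aldoc and Pgk1, with a median of -0.15 (0.00 over all genes, SD 0.697), beside 0.015% of genes called. Across the alternatives, 9 of the 10 enzymes also reached values above 0 in pellet abundance, all but Gapdh, so no direction is read. Aldoa was at 354.5, 285 and 454 CPM in the FMR1 KO pellet and at 427, 486 and 402 CPM in the WT pellet, and the groups overlapped. Eno2 and Aldoc overlapped between the genotypes as well. In fraction 5/6 they ran from -0.18 for Eno2 to 0.24 for Pgk1 (SE 0.172, adjusted p = 0.826), beside 0% of genes called (0.0301% without the library labelled WT fraction 5/6 replicate 3, where the enzymes ran from -0.19 for Tpi1 to 0.14 for Pgk1 and 0 were called). In edgeR's test the count at an unadjusted p under 0.05 was 0 in each of these 3 comparisons, and DESeq2 also called 0.

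Pellet occupancy differed between the genotypes by -0.18 for Tpi1 (SE 0.204, adjusted p = 0.955) to 0.06 for Aldoc (SE 0.204, adjusted p = 0.996) in the test of the interaction, beside 0.0672% of genes called. For Gapdh the difference was -0.09 (SE 0.186) and for Eno2 -0.15 (SE 0.215). Again the count at an unadjusted p under 0.05 was 0 and DESeq2 called 0. The standard errors of these differences ran from 0.121 for Ldhb to 0.215 for Eno2.

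Enrichment, the comparison of the pellet with fraction 5/6, likewise passed the threshold for 0 of 10 enzymes in each genotype. In WT the values ran from -0.22 for Ldhb (SE 0.147, adjusted p = 0.644) to 0.27 for Pgam1 (SE 0.16, adjusted p = 0.644), with 0 at an unadjusted p under 0.05 and 0 by DESeq2, beside 0.0229% of genes called. Without the library labelled WT fraction 5/6 replicate 3, 9.61% of genes were called and still 0 of the 10 enzymes, which ran from -0.32 for Ldhb (adjusted p = 0.0939) to 0.20 for Pgam1. In FMR1 KO, 11.4% of genes were called, and the enzymes ran from -0.46 for Pgk1 (SE 0.161, adjusted p = 0.112) to 0.14 for Pgam1, with 3 at an unadjusted p under 0.05. Tpi1 was at -0.42 (SE 0.139, adjusted p = 0.0946) and DESeq2 called it as the only one of the 10. The difference of enrichment between the genotypes ran from -0.34 for Pgk1 (SE 0.221, adjusted p = 0.897) to -0.02 for Eno2, beside 0% of genes called, with 0 at an unadjusted p under 0.05 and 0 by DESeq2. Without the same WT library it ran from -0.28 for Gapdh (adjusted p = 0.94) to 0.02 for Ldhb, and 0 enzymes were called.

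In the low nuclease libraries, whose RPFs were compared in the same way, some enzymes that were lower in the pellet than in fraction 5/6 did pass the threshold. In WT these were Pgk1 (-0.69, adjusted p = 0.0225), Ldhb (-0.49, adjusted p = 0.037) and Tpi1 (-0.46, adjusted p = 0.0447). In FMR1 KO they were Gapdh (-0.53, adjusted p = 0.0208), Aldoa (-0.51, adjusted p = 0.0409), Ldhb (-0.45, adjusted p = 0.0277), Tpi1 (-0.45, adjusted p = 0.0279) and Pgk1 (-0.35, adjusted p = 0.0361). Aldoc, Eno2, Eno1, Pkm and Pgam1 passed it in neither genotype. These 3 of 10 and 5 of 10 enzymes stand beside 8.56% and 11.7% of all genes called lower in the same fits, and 0 enzymes were called higher.

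Between the digestions, Gapdh was lower with the standard one in both genotypes, but in FMR1 KO the call was lost with the replicate block (-0.53, adjusted p = 0.0802). The 2 digestions were made on separate preparations that also differed in MgCl2, in the RNase I product, in temperature and in how monosomes were recovered, and these cannot be told apart from the nuclease dose. In the WT pellet it was at 112, 118 and 112 CPM with low nuclease and at 59.4, 63.7 and 49.2 CPM with the standard digestion, without overlap. On the TMM scale it was lower with the standard digestion by -0.47 in WT (SE 0.0978, adjusted p = 0.0149) and -0.52 in FMR1 KO (SE 0.128, adjusted p = 0.0428). In WT, Aldoc (0.52, SE 0.114, adjusted p = 0.0165) and Pgam1 (0.47, SE 0.122, adjusted p = 0.0269) were higher with the standard digestion, and in FMR1 KO 0 enzymes were. The background was 15.1% higher and 23.8% lower in WT and 7.34% and 9.35% in FMR1 KO. When each library was left out in turn, Gapdh remained past the threshold in 5 of 6 WT fits (adjusted p = 0.0564 without standard replicate 1), Aldoc in 5 of 6 (adjusted p = 0.056 without low nuclease replicate 1) and Pgam1 in 2 of 6, those without standard replicate 2 or 3. In FMR1 KO, Gapdh remained past it in 1 of 6 fits, the one without low nuclease replicate 1, with adjusted p up to 0.136 in the others. On library sizes alone, the changes of Aldoc and Pgam1 in WT were -0.01 and -0.06. Cdk8 took 2.69% to 5.62% of the low nuclease RPF counts, against 36.7% to 63.4% with the standard digestion, and with Cdk8 left out of the table Gapdh was at -0.47 (adjusted p = 0.014), Aldoc at 0.52 (adjusted p = 0.0174) and Pgam1 at 0.47 (adjusted p = 0.0273) in WT, and Gapdh at -0.53 (adjusted p = 0.0417) in FMR1 KO.

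Across the 18 standard libraries, Aldoc and Eno2 followed another pattern than the other 8 enzymes. Each of Aldoa, Tpi1, Gapdh, Pgk1, Pgam1, Eno1, Pkm and Ldhb correlated with the mean log2 CPM of the other 9 at a Pearson r between 0.917 (Gapdh) and 0.993 (Eno1). For Eno2 this was -0.04 and for Aldoc -0.41. The libraries share their material and the scaling, and they mix RPFs with RNA-seq. These values are therefore not a result apart from the occupancies above, and they are given as a description with no test. The 5 other genes most like the mean of the 10 enzymes, among 15127 genes, were Tom1l2 (r = 0.990), Slc9a3r2 (r = 0.990), B3gat2 (r = 0.989), Cbx6 (r = 0.989) and Numbl (r = 0.988).

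RPF peaks, the positions where footprints pile up on a transcript, were deposited for the 12 standard RPF libraries, and the enzymes differed in how many they had and how well these recurred. Over the 12 libraries there were 100 peaks on Pkm, 99 on Eno2, 96 on Eno1, 73 on Tpi1, 63 on Ldhb, 56 on Pgk1, 49 on Aldoa, 24 on Pgam1, 21 on Gapdh and 6 on Aldoc. All lay in coding sequence apart from 8 Gapdh peaks and 1 Pkm peak in the 5′ UTR of their transcript. The peaks of Aldoa, Gapdh and Pkm were placed on another transcript (Aldoa-201, Gapdh-203 and Pkm-201) than the one named in the count table. Aldoc, with the highest occupancy, had a median of 0 peaks per pellet library.

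Taking peaks whose middles lay within 6 nt of each other in all 6 pellet libraries, there were 10 on 4 enzymes, beside 274 on 183 transcripts in all. Without the FMR1 KO pellet replicate 2 library, which had the fewest counts on each of the 10 enzymes among them, the number was 16 on 5 enzymes, and with any other library left out it was 10 to 12. Eno1 had 4 of them, at codons 104, 243, 273 and 290 of 434, Pkm 3, Pgk1 2 and Aldoa 1. In fraction 5/6, 7 peaks on 5 enzymes recurred in all 6 libraries, and 8 on 5 enzymes in the 5 libraries without the one labelled WT replicate 3. The peak at Pgk1 codon 253 was the highest of its transcript in 12 of the 12 libraries, with heights of 291, 216 and 142 in WT pellet libraries and 220, 100 and 194 in FMR1 KO ones. It held 46.4% to 51.7% of the summed peak height of Pgk1 in the pellet libraries, and the genotypes overlapped. The peak at Eno1 codon 290 was likewise the highest in 12 of 12 libraries, with 224, 125 and 97 in WT and 150, 68 and 141 in FMR1 KO pellet libraries. Pkm codon 477 was the highest in 5 of 6 pellet libraries, with heights of 57 to 177. Heights are not scaled between libraries and are compared only within one.

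Eno2 and Eno1 differed in recurrence. Eno2 had more peaks in the pellet than Eno1, 57 against 49, but no position was shared by more than 4 of the 6 pellet libraries. In each pellet library the highest Eno2 peak (heights of 25 to 43) was lower than the highest Eno1 peak (68 to 224). The median height over all peaks was 14 or 15 in these libraries. Whether recurrence followed height was not tested. At the Eno1 codons 104, 243, 273 and 290, Eno2 had a peak in 0, 1, 2 and 0 pellet libraries. Aldoc had none at codon 288 of Aldoa. On Pgam1 a position was shared by 5 pellet libraries, on Gapdh and Ldhb by 4 and on Tpi1 by 3. Each of the 6 pellet libraries had a single coding peak on Gapdh, with its middle between codons 173 and 177, and the 2 Pgam1 peaks of each lay at codons 138 to 143 and 194 to 198.

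**Figure D5:**
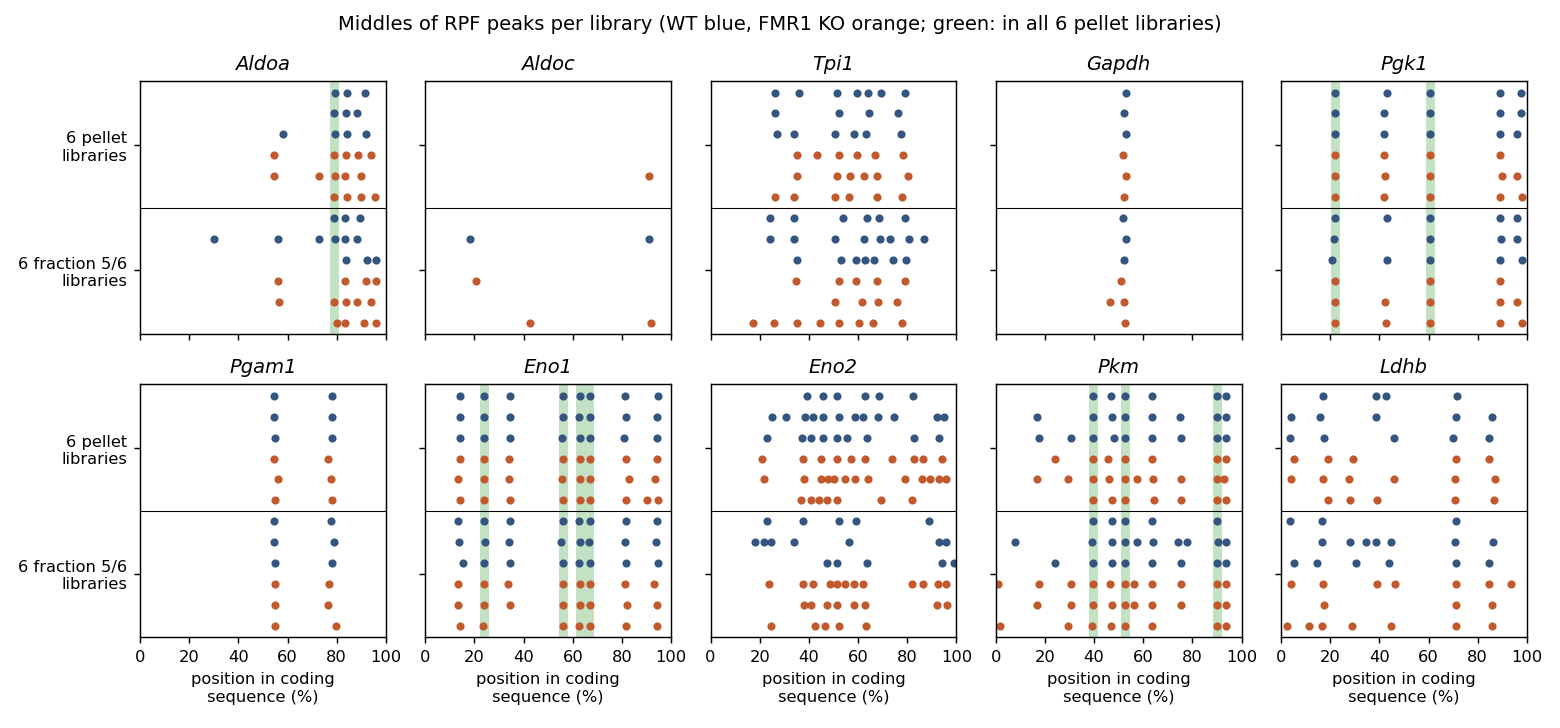
Middles of RPF peaks along the coding sequence (percent of its length) of each enzyme; each line of points is a library, 6 of the pellet above and 6 of fraction 5/6 below the black line, WT in blue and FMR1 KO in orange. Green bands mark the 10 positions shared within 6 nt by all 6 pellet libraries, on Aldoa, Pgk1, Eno1 and Pkm, while the peaks of Eno2 are spread and Aldoc has 1 in the pellet.

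The copies elsewhere in the genome also bear on these positions. Of the 28 windows of 28 nt that cover the middle of a peak, all 28 had a copy elsewhere for both Pgk1 peaks, for Eno1 codons 104 and 290 and for Pkm codon 279. There were 11 for Aldoa codon 288, 3 for Pkm codon 477, 2 for Eno1 codon 273 and 1 each for Eno1 codon 243 and Pkm codon 209. Recurrent peaks lay both where all of these windows had a copy and where few had one. Over the whole coding sequence, the share of windows with a copy was 100% for Pgk1, 90.5% for Eno1, 72.5% for Pkm and 53.7% for Aldoa. The part of copies in where peaks recurred was not tested. Codons for aspartate or glutamate made up 11 of 90 codons (12.2%) of the peak windows and 210 of 1746 codons (12.03%) of the coding sequences concerned. Pkm is spliced into forms that carry either of a pair of mutually exclusive exons, and the exon of Pkm-201 that the transcript named in the count table lacks (chr9:59675568-59675734) held 9 of the 100 Pkm peaks, in 8 of the 12 libraries. The peaks were placed on Pkm-201 alone, so these data do not compare the exons.

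The enzymes held 0.182% ± 0.0579 (SD, n = 3) of the peaks of a WT pellet library and 0.214% ± 0.0815 of those of an FMR1 KO one (exact two-sided permutation test, p = 0.7, where 3 against 3 libraries cannot go below 0.1). Over both genotypes it was 0.198% ± 0.0655 (n = 6) in the pellet and 0.287% ± 0.136 (n = 6) in fraction 5/6 (exact two-sided permutation test, p = 0.188). With the library labelled WT fraction 5/6 replicate 3 dropped, fraction 5/6 was at 0.305% ± 0.143 (n = 5; exact permutation test, p = 0.143). Neither difference passed its test.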

How the data were processed

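The deposited count table holds raw counts per gene, which the authors made from reads trimmed with Cutadapt 2.10, cleared of ribosomal RNA with Bowtie2 2.3.5, aligned with STAR 2.7.8a to GRCm38 (Ensembl 102), freed of duplicates with Picard and SAMtools 1.19.2 and counted with featureCounts 2.2.0. The authors' peak lists, deposited for the 12 standard RPF libraries, give intervals on transcripts with a value taken here as the peak's height, a signal that is not scaled between libraries (the lists carry no header). The methods call a peak where the height is a set multiple of the transcript's average, and the sources used here do not say whether that minimum was applied to the deposited lists.

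Enzymes and gene lists were chosen with earlier results of these data known. The rule for named genes described both aldolases, both enolases, Gapdh and Pkm in full, the member with the largest rise and fall in each comparison, and the 3 largest rises and falls of each other list. Counts of 16561 protein-coding rows (biotypes from GENCODE M21) were filtered with filterByExpr, scaled by TMM and tested with edgeR 4.0.16 (quasi-likelihood test, R 4.3.3) on the compared groups alone, or with an interaction term over 4 groups. Adjusted p-values are Benjamini-Hochberg values over all genes tested, with a threshold of 0.05 and a prior count of 2 for log2 values. SE is on the log2 scale. The edgeR steps were tested on simulated data with 200 changed genes. CPM leave out Cdk8. Windows were read from GRCm38 with Python 3.11.15, and loci under 10000 bases apart were joined. Peak shares were compared with exact permutation tests (scipy 1.17.1).

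Alternatives were DESeq2 1.42.0 with its size factors, library sizes alone, no filter on low counts, Cdk8 left out, all biotypes, all groups fitted together, the low nuclease libraries, a replicate block and each library left out in turn. Same-numbered samples of different groups correlated at -0.131 to 0.233 and were not taken as pairs. Replicates of 1 group differed by more than sampling noise in each pair. Removal of reads that share a position can lower the counts of abundant, short mRNAs, and its effect was not tested. Counting of reads with several matches is not given in the sources used here.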

Additional observations from a re-analysis of the deposited data

How the results depend on the processing

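The number of enzymes past the threshold in pellet occupancy, 7 in each genotype, was 3 in WT with the low nuclease libraries and 4 when the 3 RNA-seq libraries with most counts on 10 genes were also left out, a setting chosen after seeing the data, and 3 and 3 in FMR1 KO. Of all genes, 52.4% and 58.9% were called in these fits in WT and 28.8% and 38.5% in FMR1 KO, against 65.4% and 67.1% with the standard libraries. Aldoc, Eno2 and Gapdh were past it in each of these 4 fits. Fraction 5/6 occupancy in FMR1 KO had 3 in place of 6 with the low nuclease libraries, where 34.3% of all genes were called against 62.9%. Enrichment went from 0 to 3 in WT and to 5 in FMR1 KO with these libraries, where 22.8% and 20.5% of all genes were called, and to 1 in FMR1 KO with DESeq2 and with all groups fitted together. The nuclease comparison in the WT pellet went from 3 to 6 on library sizes alone. With the replicate block, pellet occupancy had 5 enzymes past the threshold in WT, where Eno1 (adjusted p = 0.0761) and Ldhb (adjusted p = 0.0613) were lost, and 6 in FMR1 KO, where Eno1 (0.0505) and Ldhb (0.0852) were lost and Tpi1 (0.0404) was gained, and the nuclease comparison in FMR1 KO had 0 in place of 1 (Gapdh). With each library left out in turn, the numbers ran from 4 to 7 and from 5 to 7 in pellet occupancy in WT and FMR1 KO, from 4 to 5 and from 5 to 6 in fraction 5/6 occupancy, from 1 to 4 and from 0 to 1 in the nuclease comparisons, from 10 to 16 for recurrent peaks, and stayed at 0 in the comparisons of genotypes and in enrichment. Recurrent peaks numbered 6 within 3 nt and 17 within 12 nt, against 10 within 6 nt. The cause of these shifts was not tested.

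Directions changed where TMM was replaced by library sizes alone, which lowers the median of all genes. In pellet occupancy, Ldhb was at -0.84, Aldoa at -0.99 and Pkm at -1.09 in WT and Ldhb at -0.83 in FMR1 KO. On polysomes, Ldhb was at -0.61, Aldoa at -0.92 and Pkm at -1.08 in WT, and Tpi1 at -0.76, Ldhb at -0.19, Aldoa at -0.4 and Pgk1 at -0.78 in FMR1 KO. In the nuclease comparison in WT, Eno2 was at -0.35, Pgam1 at -0.06, Aldoc at -0.01, Ldhb at -0.41 and Eno1 at -0.43. With the low nuclease libraries, Pgam1 (0.21), Ldhb (-0.06, and -0.05 without the 3 RNA-seq libraries), Pgk1 (0.09) and Eno1 (0.58) turned in pellet occupancy in FMR1 KO, Pgk1 (0.62, and 0.75 without them) and Tpi1 (0.69 without them) on polysomes in WT, and Pgam1 (0.29) on polysomes in FMR1 KO. Sign changes of enzymes past the threshold in neither fit are not listed.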
